A study of Mus musculus with 44 samples.

Results

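The transcripts described here are 10 genes of antibody-producing cells, read in every library of a study of ribosome-bound RNA from mouse microglia. They are the immunoglobulin constant-region genes Igkc, Ighg1, Ighg2b and Ighm, the joining chain gene Jchain, the transcriptional coactivator gene Pou2af1, the receptor gene Tnfrsf17, the chaperone gene Mzb1, and the B cell receptor subunit genes Cd79a and Cd79b. The genes were picked because of the high level of Igkc in the immunoprecipitates over their inputs in tamoxifen-treated mice, and the other 9 were listed with it as immunoglobulin and plasma cell transcripts. All 10 were found, among 58791 gene identifiers in any count file and 50714 in the files of both sets of libraries. The genes were thus chosen by the log2 difference between immunoprecipitate and input counts in tamoxifen-treated mice, and those levels are given below as a description.

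The study used translating ribosome affinity purification (TRAP), in which a ribosomal protein fused to GFP is expressed in chosen cells and ribosomes with their RNA are captured through the GFP. All 44 libraries, controls included, came from mice with the genotype CX3CR1-CreERT2 (+/-) x RPL10a-GFP flox (+/-). Cx3cr1 drives the tamoxifen-dependent Cre and is active in microglia, in macrophages at the borders of the brain and in some white blood cells, so the tag is not specific to microglia by design. The series design text gives the alleles as fl/fl and the control mice as untreated, whereas the sample labels give (+/-) and vehicle. Tamoxifen was dosed at 100 mg/kg on postnatal days 15, 17 and 19, control mice received vehicle, and dorsal cortex with hippocampus was taken on postnatal day 28 or 29. Input was the whole homogenate, MG_TRAP the TRAP sample of microglia, SN_input the synaptosome fraction, and PeMP_TRAP the TRAP sample prepared from synaptosomes, which carries the name SN_TRAP in the later libraries. The first set of 24 libraries held 3 control replicates (letters A to C) and 3 tamoxifen replicates (D to F) of each of the 4 fractions. The second set of 20 libraries held 5 tamoxifen replicates (G to K) of each fraction and no control, so that set and control status are not crossed. Whether a letter is 1 animal or a pool is not stated, and p-values below measure the spread between these samples, which may be technical.

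Antibodies are built from heavy and light chains, each with a variable part, encoded by V, D and J gene segments that are joined in a B cell, and a constant part encoded by genes such as Ighm, Ighg1 or Igkc. A naive B cell uses Ighm and Ighd and carries the antibody on its surface with the signalling subunits encoded by Cd79a and Cd79b. Cells that switch to IgG use Ighg1, Ighg2b or a related gene, and plasma cells secrete the antibody in large amounts while reducing much of the B cell surface machinery. Few B lineage cells are found in the healthy brain, chiefly at its borders.

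The constant-region sequences show how far reads of these genes can be told apart. The coding exon of Igkc is printed over 300 bases, at chr6:70726435-70726734 on the plus strand of GRCm38, as annotated in GENCODE M21. No stretch of 50 bases of Igkc was found in another annotated gene. The 3 IgG constant genes are printed over the first 90 bases of their first coding exon, all on the minus strand, with Ighg1 at chr12:113330434-113330523, Ighg2b at chr12:113307844-113307933 and Ighg2c at chr12:113288843-113288932. Capitals mark the bases that differ from Ighg1, 17 in Ighg2b and 18 in Ighg2c.
Igkc: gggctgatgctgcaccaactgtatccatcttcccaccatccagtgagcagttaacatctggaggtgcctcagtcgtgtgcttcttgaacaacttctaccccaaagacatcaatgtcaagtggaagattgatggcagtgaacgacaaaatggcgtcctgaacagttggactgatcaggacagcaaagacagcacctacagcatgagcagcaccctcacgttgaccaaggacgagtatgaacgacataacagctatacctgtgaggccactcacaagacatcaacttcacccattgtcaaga
Ighg1: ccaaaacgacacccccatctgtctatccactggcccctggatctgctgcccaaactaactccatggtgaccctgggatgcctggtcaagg
Ighg2b: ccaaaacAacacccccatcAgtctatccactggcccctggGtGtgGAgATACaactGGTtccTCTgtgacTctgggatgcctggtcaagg
Ighg2c: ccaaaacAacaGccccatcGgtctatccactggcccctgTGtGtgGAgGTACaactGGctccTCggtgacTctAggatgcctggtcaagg

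The kappa variable genes that carried most of the variable-region counts are Igkv6-32, printed from its exon at chr6:70074024-70074321, and Igkv12-41, at chr6:69858420-69858717, both on the minus strand. Capitals mark bases that lie in 50-base stretches which also occur in another gene, with 216 such bases of 298 in Igkv12-41 and 0 of 298 in Igkv6-32. The relatives that share stretches with Igkv12-41 are Igkv12-44, Igkv12-40 and Igkv12-46, so its counts are uncertain where the authors' counting could split such reads.
Igkv6-32: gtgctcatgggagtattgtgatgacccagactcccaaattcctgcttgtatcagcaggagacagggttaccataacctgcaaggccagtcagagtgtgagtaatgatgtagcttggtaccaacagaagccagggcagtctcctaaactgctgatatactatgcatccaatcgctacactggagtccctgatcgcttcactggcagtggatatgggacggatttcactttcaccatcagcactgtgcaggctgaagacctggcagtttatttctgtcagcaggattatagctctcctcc
Igkv12-41: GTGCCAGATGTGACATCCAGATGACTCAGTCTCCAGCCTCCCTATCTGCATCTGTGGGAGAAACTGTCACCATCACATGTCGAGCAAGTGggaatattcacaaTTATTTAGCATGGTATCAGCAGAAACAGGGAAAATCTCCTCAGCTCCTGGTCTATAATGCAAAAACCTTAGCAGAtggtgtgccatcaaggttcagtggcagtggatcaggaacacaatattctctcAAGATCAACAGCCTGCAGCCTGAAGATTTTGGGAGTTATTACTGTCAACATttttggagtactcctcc

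The genes lie at 8 places in the genome, given with GENCODE M21 on GRCm38 and the Ensembl identifiers of the files. The heavy chain constant genes sit together on the minus strand, Ighg2b (ENSMUSG00000076613) at chr12:113302965-113307933, Ighg1 (ENSMUSG00000076614) at chr12:113325240-113330523 and Ighm (ENSMUSG00000076617) at chr12:113418558-113422730. Igkc (ENSMUSG00000076609) lies at chr6:70726435-70726966 on the plus strand and overlaps the gene model Gm30211 of the same strand. Pou2af1 (ENSMUSG00000032053) lies at chr9:51213708-51240080, Tnfrsf17 (ENSMUSG00000022496) at chr16:11313812-11320074 and Cd79a (ENSMUSG00000003379) at chr7:24897381-24902197, all on the plus strand, and Pou2af1 overlaps Gm47828. Jchain (ENSMUSG00000067149) lies at chr5:88519809-88527891, Cd79b (ENSMUSG00000040592) at chr11:106311341-106314762 and Mzb1 (ENSMUSG00000024353) at chr18:35647267-35649367, all on the minus strand, and Mzb1 overlaps the gene named SPATA24 in that annotation. HTSeq counted reads over each gene as a whole, so exons and untranslated parts are not separated.

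Reads assigned to genes ran from 746616 to 35584637 per library, the lowest being PeMP_TRAP of letter F. Levels are given as counts and as counts per 1000000 assigned reads (CPM). A level of 3 counts, taken as the limit that a count of 0 allows, stood at 0.0843 to 4.02 CPM, and cDNA was amplified without molecular identifiers, so limits and intervals cover counting error only. Genes with a count numbered 5425 to 7436 in PeMP_TRAP of the second set, against 12609 to 16754 in MG_TRAP and 21362 to 22949 in Input of that set, so PeMP_TRAP of the second set was deep but held few genes. The summed level of 10 microglial marker genes was 9182 to 15965 CPM in MG_TRAP and 5577 to 11262 CPM in PeMP_TRAP of the second set, 1263 to 4536 CPM in control MG_TRAP, and 183 to 207 CPM in Input of the second set. That of 5 neuronal genes was 9413 to 10100 CPM in Input, 1765 to 5034 CPM in MG_TRAP and 569 to 1069 CPM in PeMP_TRAP of that set. For 5 astrocyte genes the values were 2415 to 3537, 724 to 1888 and 838 to 2447 CPM, and for 5 oligodendrocyte genes 5822 to 7153, 1501 to 14119 and 2251 to 5662 CPM, the oligodendrocyte sum in MG_TRAP thus overlapping that of Input. Their part in the immunoglobulin levels was not tested. Letters D, E and F differed widely in the immunoglobulin genes. In bulk samples, fewer cells of a type and less RNA per cell cannot be told apart.

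Igkc, the constant region of the kappa light chain and the only gene of its kind, was at most 1 count in control TRAP libraries and reached 51010 counts in tamoxifen TRAP libraries. In control MG_TRAP it was at 0 in all 3 libraries, and in control PeMP_TRAP it was at 0, 1 and 0 counts. In MG_TRAP of the first tamoxifen set it was at 3 counts (0.226 CPM) in D, 2 counts (0.441 CPM) in E and 1455 counts (466 CPM) in F. Letter F thus stood far above D and E, which were at the level of the controls. In MG_TRAP of the second set Igkc was at 36.7, 43.5, 59.1, 152 and 205 CPM in G, H, I, J and K. In PeMP_TRAP it was at 46.9 CPM in D, 1.2 CPM in E and 2937 CPM in F, and at 810, 745, 1189, 1884 and 1985 CPM in G to K. The mean of the second set was 99.3 ± 75.3 CPM in MG_TRAP and 1323 ± 585 CPM in PeMP_TRAP (SD, n = 5). The lowest PeMP_TRAP library lay above the highest MG_TRAP library, and the share of all genes with such a gap was not counted. In the inputs of the second set the means were 0.39 ± 0.272 CPM in Input and 0.964 ± 1.04 CPM in SN_input, so Igkc was 255-fold higher in MG_TRAP than in Input and 1371-fold higher in PeMP_TRAP than in SN_input, the second ratio being 2550 without H. No input library held more than 30 counts of Igkc, and the highest in CPM was a control SN_input library at 3.86 CPM.

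**Figure D1:**
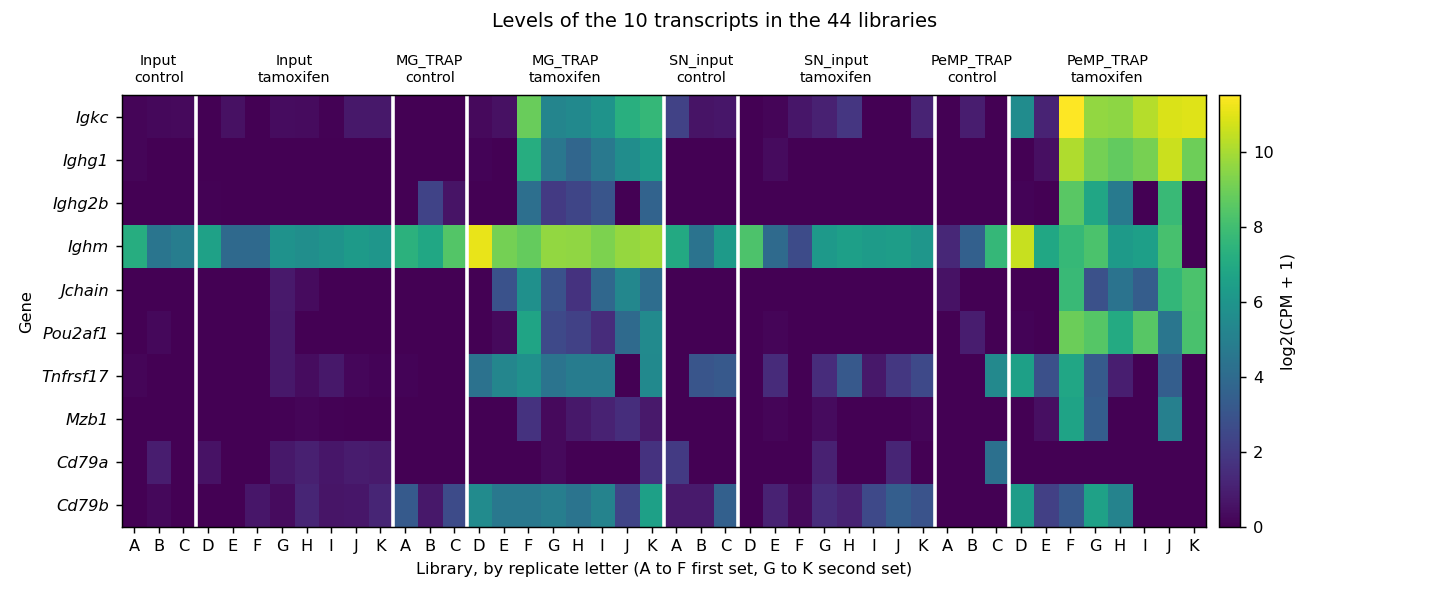
Level of each of the 10 genes (rows) in each of the 44 libraries (columns, by fraction, treatment and replicate letter), coloured by log2(CPM + 1) from dark (0) to bright (high). Igkc, Ighg1 and Pou2af1 are brighter in TRAP libraries of F to K than in the inputs and the controls, whereas Ighm is above the darkest colour in nearly every library.

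Ighg1, the constant region of the IgG1 heavy chain, followed Igkc library by library. It was at 0 in all 6 control TRAP libraries, at 1, 0 and 448 counts in MG_TRAP of D, E and F, and at 0, 1 and 842 counts in PeMP_TRAP of the same letters. In the second set it was at 22.6, 13, 24.2, 49.2 and 77.6 CPM in MG_TRAP and at 556, 426, 562, 1542 and 505 CPM in PeMP_TRAP of G to K. All 6 letters with Igkc above 30 CPM in MG_TRAP were also those with Ighg1 above 10 CPM. Ighg1 had no count in Input and SN_input of the second set, and its mean was at least 169-fold higher in MG_TRAP than in Input and at least 1999-fold higher in PeMP_TRAP than in SN_input, taking 3 counts in the shallowest input library as the limit. PeMP_TRAP of letter D differed from this pattern, with 591 counts of Igkc and 0 of Ighg1.

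Ighg2b, the constant region of IgG2b, was found in fewer libraries and at lower levels. In MG_TRAP it was at 0, 0 and 55 counts in D, E and F and at 38, 120, 107, 0 and 293 counts in G to K. In PeMP_TRAP it was at 1, 0 and 286 counts in D, E and F and at 3949, 594, 0, 4493 and 0 counts in G to K. It was thus at 0 in 2 deep PeMP_TRAP libraries, I and K, where Ighg1 had 19615 and 12962 counts. Control MG_TRAP held 0, 5 and 6 counts of Ighg2b, and the inputs held at most 1.

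Ighm, the constant region of the IgM heavy chain, had a different distribution and was present outside the tamoxifen TRAP libraries. It held 25 to 2271 counts in every Input and SN_input library, and the means of the second set were 61.8 ± 9.77 CPM in Input and 78.7 ± 9.5 CPM in SN_input (SD, n = 5). Control MG_TRAP held 169, 117 and 344 CPM, a mean 3.28-fold that of control Input (9.37-fold without A and 1.75-fold without C). In MG_TRAP of tamoxifen mice Ighm was at 2285, 550 and 450 CPM in D, E and F and at 794, 773, 613, 830 and 954 CPM in G to K. Every tamoxifen MG_TRAP library was above every control MG_TRAP library, but the share of all genes for which this holds was not counted. The mean of Ighm in the second set, 793 ± 123 CPM, was 12.8-fold that of Input. Letters D and E, which had at most 3 counts of Igkc in MG_TRAP, had 30362 and 2495 counts of Ighm there.

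In PeMP_TRAP, Ighm did not follow Igkc. Control PeMP_TRAP held 3, 12 and 818 counts (the lowest at 1.46 CPM). The tamoxifen libraries of the first set were at 1510 CPM in D, 114 CPM in E and 209 CPM in F, and those of the second set at 309, 76.5, 89.3, 284 and 0 CPM in G to K. Ighm was lower in PeMP_TRAP than in MG_TRAP of the same letter in 8 of 8 letters, and Igkc was higher in 8 of 8. The share of all genes with such counts was not determined. Of all genes tested, 22% were called lower in PeMP_TRAP and 3.17% higher. The fitted log2 difference of Ighm, -0.57, was that of the median gene, also -0.57, so its direction was that of most genes. PeMP_TRAP of letter K held 5972 genes with a count, against 12934 in MG_TRAP of K. Letter K had 51010 counts of Igkc and 0 of Ighm in PeMP_TRAP, and 5132 counts of Igkc and 23841 of Ighm in MG_TRAP. The mean of the second set in PeMP_TRAP, 152 ± 137 CPM, was 1.93-fold that of SN_input, and in controls that ratio was 0.962, or 2.21 without A and 0.0824 without C.

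**Figure D2:**
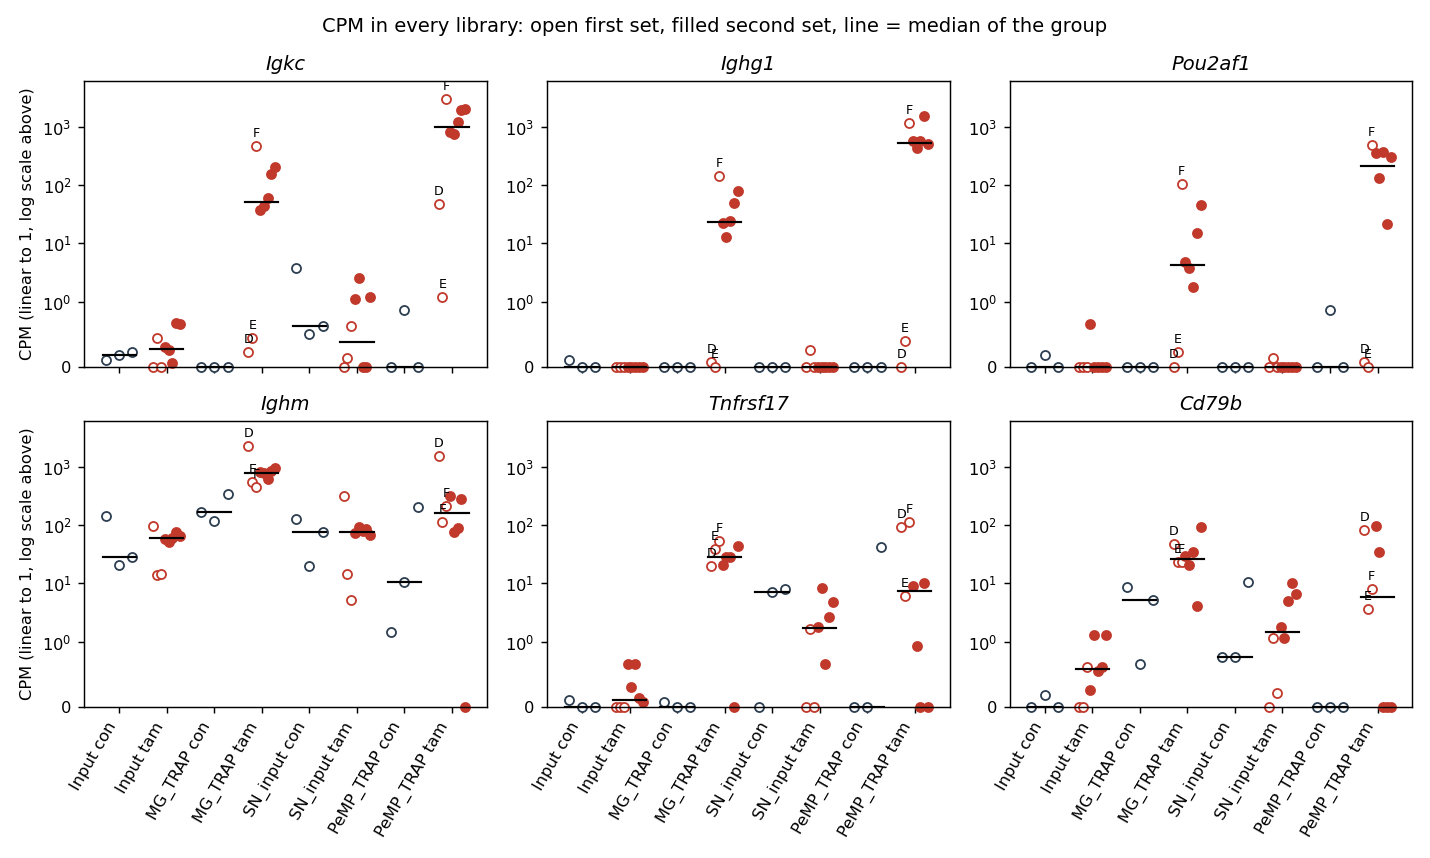
CPM of 6 of the genes in each library (vertical axis, linear up to 1 and logarithmic above) by fraction and treatment, with first-set libraries open, second-set libraries filled, and the group median as a line. For Igkc, letters D and E of tamoxifen MG_TRAP lie at 0.226 and 0.441 CPM beside the controls and F lies at 466 CPM, while Ighm is above 400 CPM in all 8 tamoxifen MG_TRAP libraries.

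**Figure D3:**
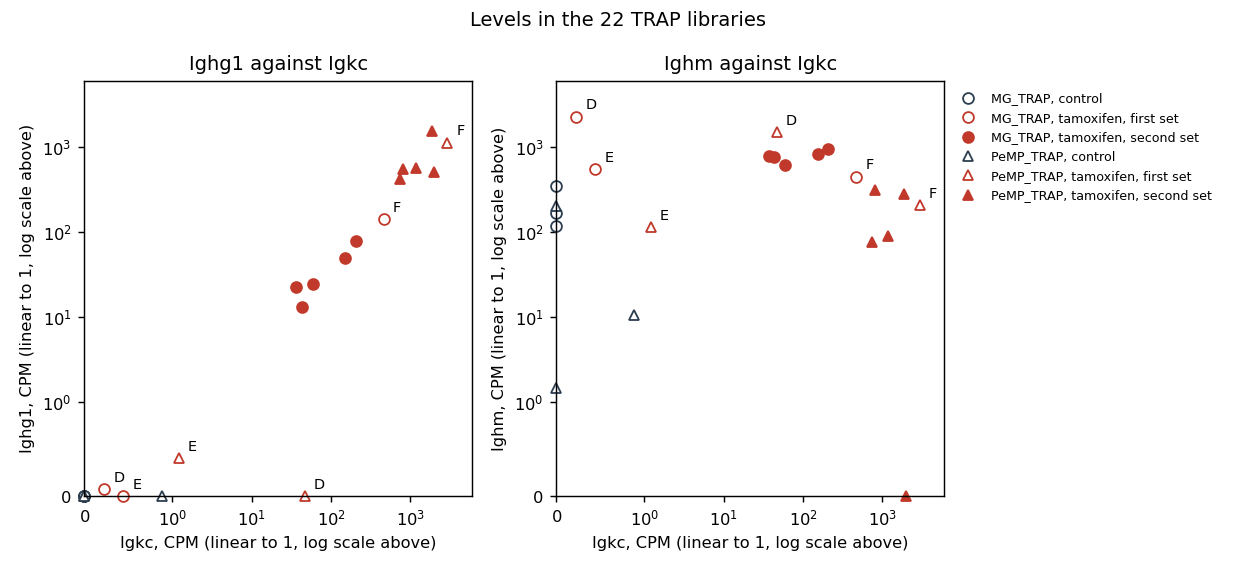
CPM of Ighg1 (left) and of Ighm (right) against CPM of Igkc in the 22 TRAP libraries, with axes linear up to 1 and logarithmic above; circles are MG_TRAP, triangles PeMP_TRAP, dark open symbols controls, and D, E and F are lettered. Ighg1 climbs with Igkc (r = 0.949 of log2 CPM), and Ighm does not (r = -0.00733).

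Jchain, which links IgM and IgA units into larger forms, was seen in most of the same libraries as Igkc. In MG_TRAP it was at 0, 29 and 167 counts in D, E and F and at 85, 60, 197, 1060 and 415 counts in G to K. In PeMP_TRAP it was at 0, 0 and 169 counts in D, E and F and at 222, 468, 328, 4045 and 7752 counts in G to K, a range of 6.24 to 302 CPM within the second set. Jchain was at 0 in all inputs of the first set and in all SN_input libraries of the second, and 2 Input libraries, G and H, held 15 and 5 counts. Control TRAP libraries held at most 1 count.

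Pou2af1 encodes a coactivator of octamer-binding transcription factors at immunoglobulin promoters. It was at 0, 1 and 324 counts in MG_TRAP of D, E and F and at 65, 103, 26, 409 and 1117 counts in G to K. In PeMP_TRAP it was at 1, 0 and 365 counts in D, E and F, and at 357, 130, 369, 21.8 and 297 CPM in G to K. Its mean in PeMP_TRAP of the second set was 235 ± 153 CPM (SD, n = 5), at least 653-fold above SN_input, where no library of that set had a count. F was again the only first-set letter with more than 1 count.

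Mzb1 encodes a chaperone of the endoplasmic reticulum of B and plasma cells. It was low, at 0, 0 and 7 counts in MG_TRAP of D, E and F and at 3, 18, 17, 50 and 18 counts in G to K. In PeMP_TRAP it was at 0, 1 and 77 counts in D, E and F and at 354, 0, 0, 638 and 0 counts in G to K, so that 3 of 5 libraries of the second set held none. Of its 50-base stretches 53.5% also lay in the overlapping gene model SPATA24, so its counts depend on how the authors' counting treated that overlap.

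Tnfrsf17 encodes BCMA, a receptor for the survival factors BAFF and APRIL on plasma cells. In MG_TRAP it was at 19.5, 38.1 and 53.5 CPM in D, E and F and at 20.8, 27.8, 27.9, 0 and 42.9 CPM in G to K. It was thus present in D and E, where Igkc was near 0, and it had no count in J, where Igkc had 4136. Control MG_TRAP had at most 1 count. In PeMP_TRAP it was at 93.8, 6.01 and 111 CPM in D, E and F and at 8.88, 0.941, 0, 9.98 and 0 CPM in G to K, and 1 control library held 42.5 CPM. The mean of the second set was 65.3-fold above Input in MG_TRAP and 1.09-fold that of SN_input in PeMP_TRAP, a ratio of 0.635 without J, 0.667 without G and 1.9 without H.

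Cd79a and Cd79b encode the paired signalling subunits of the B cell receptor, and their counts did not go together. Cd79b was at 46.7, 23.1 and 23.4 CPM in MG_TRAP of D, E and F and at 29.5, 20.7, 34.1, 4.08 and 94 CPM in G to K, with control MG_TRAP at 8.65, 0.657 and 5.14 CPM. In PeMP_TRAP Cd79b was at 82.6, 3.6 and 8.04 CPM in D, E and F and at 94.6, 34.6, 0, 0 and 0 CPM in G to K, and it was at 0 in the 3 control libraries. Cd79a had 3 counts in G and 55 in K among the 8 tamoxifen MG_TRAP libraries and 0 in the other 6, and it had 0 in all 8 tamoxifen PeMP_TRAP libraries. Every Input library of the second set held 11 to 20 counts of Cd79a, and 1 control PeMP_TRAP library held 73. In PeMP_TRAP of letter K, the library with the most Igkc counts, Ighm, Tnfrsf17, Mzb1, Cd79a and Cd79b were all at 0. That library held 5972 genes with a count, against 12934 in MG_TRAP of K, so many other genes were at 0 there too.

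Scaled to exon length, as CPM per kilobase, the order of the genes differed between the fractions. In PeMP_TRAP of the second set the medians were 2234 for Igkc, 215 for Ighg1, 116 for Pou2af1, 47.3 for Ighm, 9.49 for Ighg2b, 7.95 for Jchain, 1.15 for Tnfrsf17, and 0 for Mzb1, Cd79a and Cd79b. In MG_TRAP of the second set Ighm led at 421 CPM per kilobase, before Igkc at 111, Tnfrsf17 at 34.1, Cd79b at 20.6 and Ighg1 at 9.32. Jchain, Pou2af1, Ighg2b and Mzb1 lay between 0.593 and 5.34, with Cd79a at 0. In PeMP_TRAP the libraries of Igkc, at 1400 to 3732 CPM per kilobase, did not overlap those of Ighg1, at 165 to 595, which lay above those of Pou2af1, at 8.54 to 145. Pou2af1 and the genes after it overlapped their neighbours, as did Ighm (325 to 506) and Igkc (68.9 to 386) in MG_TRAP. In MG_TRAP of the first tamoxifen set Ighm was at 292, Tnfrsf17 at 46.8 and Cd79b at 16.3 CPM per kilobase, and in control MG_TRAP Ighm was at 89.6 and Cd79b at 3.59.

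The other immunoglobulin constant genes gave further members of the same classes. Ighd, the IgD constant gene next to Ighm, was at 0.331 to 27 CPM in MG_TRAP of the second set, at 76.4 CPM in PeMP_TRAP of D, and at 0 in PeMP_TRAP of G, I and K. The lambda light chain genes Iglc1, Iglc2 and Iglc3 together held at most 18 counts in an input library, control SN_input of C, and were at 0 in most. They reached 2991, 3707 and 1980 counts in PeMP_TRAP of the second set. In control TRAP libraries they were at 0 but for 43 counts of Iglc1 in PeMP_TRAP of A. Lambda counts made up 5.8% to 17.2% of all light chain constant counts in MG_TRAP and PeMP_TRAP of G to K, and 13.9% and 12.4% in MG_TRAP and PeMP_TRAP of F. Of the IgG counts, Ighg1 made up 71% to 100% in the same 10 libraries and 89.1% and 74.1% in F. Ighg2c was the IgG gene found in Input of the second set, with 116 to 212 counts in each library, where Ighg1 and Ighg2b had 0. It was not confined to Input. In TRAP libraries of that set it had up to 498 counts in MG_TRAP (median 0) and up to 1864 in PeMP_TRAP (median 54). Igha and Ighg3 were sporadic, with at most 532 and 62 counts, and Ighe and Iglc4 did not reach 3 counts in any library. All immunoglobulin genes together took 0.0761% to 0.474% of assigned reads in TRAP libraries of the second set.

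Reads of variable genes were spread over few genes. Of 160 kappa V genes in the annotation, 11 reached 3 counts in any library, and of 49621 kappa V counts in the 44 libraries, 49280 lay in MG_TRAP and PeMP_TRAP of G to K. Igkv6-32 was the leading kappa V gene in 9 of those 10 libraries, with 49, 265, 137, 822 and 1201 counts in MG_TRAP and 6812, 998, 2788, 6916 and 7136 counts in PeMP_TRAP of G to K. The sequence of Igkv6-32 printed above has no stretch of 50 bases in common with another gene. Igkv12-41 led in PeMP_TRAP of I with 5503 counts, but it had 0 counts in PeMP_TRAP of H and K. Igkv3-12, of which 58.4% of 50-base stretches also lie in other genes, had up to 4173 counts. These 3 genes held 79.2% to 100% of kappa V counts in the 10 libraries.

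In F the make-up of the kappa V counts differed between the fractions. MG_TRAP of F had 55 kappa V counts, of which 14.5% (95% Wilson interval 7.56 to 26.2) fell on the 3 genes and 26 counts fell on Igkv6-20. PeMP_TRAP of F had 29, of which 93.1% (78 to 98.1) fell on them. In PeMP_TRAP of D, 179 of 180 kappa V counts were of Igkv12-41. Among heavy chain segments, 21 of 185 V genes and 0 of 20 D genes reached 3 counts, with 10078 V counts in all. The leading V genes of the heavy locus were Ighv1-85 and Ighv1-53, at up to 546 and 827 counts. The joining gene Ighj1, which lies beside Ighm, had 384 counts in MG_TRAP of D, where Ighm was highest. For lambda, Iglv1 had 2151 counts in PeMP_TRAP of K and Iglv3 1674 in that of G, and each had 0 in most other libraries, while the joining gene Iglj3 had up to 195.

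**Figure D4:**
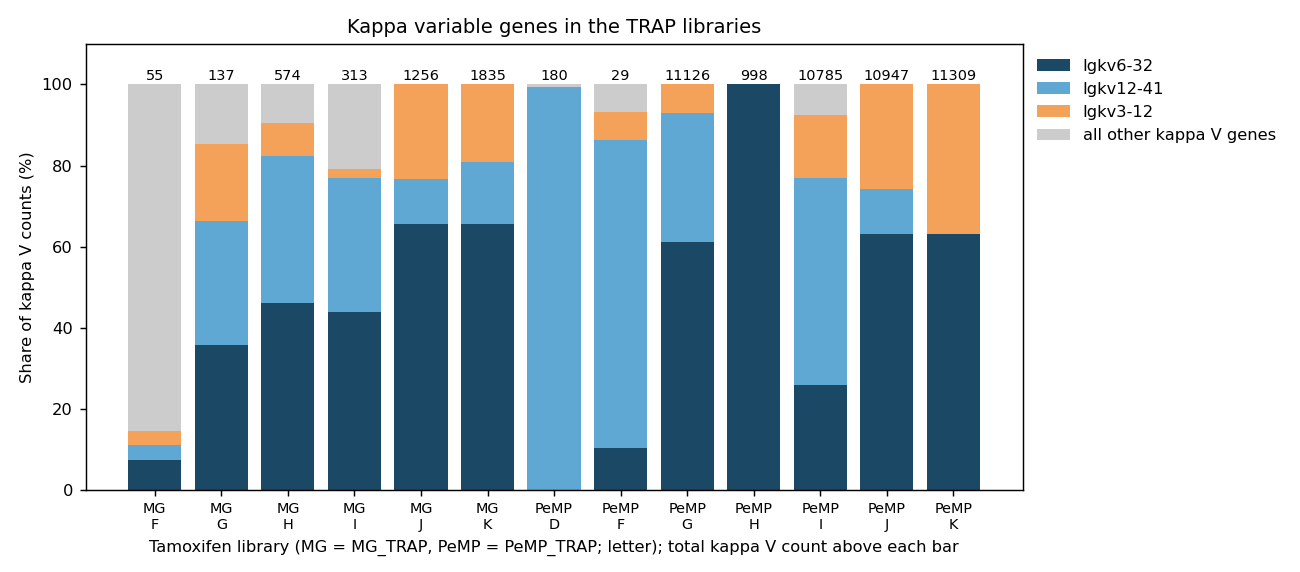
Share of kappa V counts (vertical axis, percent) on Igkv6-32, Igkv12-41, Igkv3-12 and all other kappa V genes in each tamoxifen TRAP library with at least 20 such counts; the total count stands above each bar. Igkv6-32 leads in 9 of the 10 libraries of G to K, and in MG_TRAP of F the 3 named genes hold 14.5%.

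The direct comparison of PeMP_TRAP with MG_TRAP in the 8 tamoxifen letters asks which transcripts differ between ribosomes captured from synaptosomes and those from the homogenate. Both sides are libraries that also served to choose the genes. Of 15710 genes tested with edgeR's quasi-likelihood test, 25.2% were called at an adjusted p under 0.05, 3.17% higher in PeMP_TRAP and 22% lower. The 498 higher and 3454 lower genes became 287 and 4168 with RLE size factors and 195 and 4284 with total counts. All 10 immunoglobulin and plasma cell genes passed the filter on low counts, 5 were higher and 1 lower, and their median log2 difference was 3.13 beside -0.57 over all genes tested. The unadjusted p was under 0.05 for 34.3% of genes and the same 6 of the list. Igkc rose by 3.59 (SE 1.06, adjusted p = 0.0109) and Ighg1 by 4.29 (SE 1.23, adjusted p = 0.00961) on the log2 scale. Both were called with each letter left out, with log2 differences of 3.39 to 4.70 for Igkc and 4.02 to 4.64 for Ighg1, and in the second set alone at 4.12 and 4.65. In the first set alone Igkc was at 2.78 (SE 1.62) and not called, and Ighg1 did not pass the filter. Across letters, Igkc was higher in PeMP_TRAP in 8 of 8, Ighg1 and Pou2af1 in 7 of 8, Ighg2b in 5 and Mzb1 in 4. Such counts were not made for all genes.

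The other 4 calls of this comparison depended more on the libraries included, while the log2 differences stayed at 3.26 to 4.39 for Pou2af1, 3.67 to 4.90 for Ighg2b and 3.66 to 4.79 for Mzb1 in the fits without 1 letter. Pou2af1 rose by 3.74 (SE 1.35, adjusted p = 0.037) and lost the call without any of the letters E, G, H, I, J or K and with RLE size factors or total counts. Ighg2b rose by 4.36 (SE 1.61, adjusted p = 0.0443) and lost the call without any of D, E, F, G, H or J and with RLE size factors or total counts. Mzb1 rose by 4.57 (SE 1.59, adjusted p = 0.0302) and lost the call without E or without F. Neither Ighg2b, at 4.10 (SE 2.24), nor Mzb1, at 3.43 (SE 1.74), was called in the second set alone. With a replicate block, Ighg2b, Mzb1 and Cd79a were not called, at 3.69, 3.11 and -4.09. Mzb1 no longer passed the filter without G, I or J. Cd79a was lower, at -5.31 (SE 1.62, adjusted p = 0.0141), a difference between 2 MG_TRAP libraries with counts and none in PeMP_TRAP, and it did not pass the filter without G, H, J or K. With DESeq2, which called 34.7% of genes, Ighg2b and Cd79a lost the call, at log2 differences of 4.08 and -3.09. Ighm was at -0.57 (SE 0.79, adjusted p = 0.678 in edgeR), and at -1.55 (SE 0.70) and not called without D. Jchain was at 2.68 (SE 1.39), Cd79b at 0.87 (SE 1.25) and Tnfrsf17 at 0.62 (SE 1.41), with adjusted p of 0.173, 0.693 and 0.82 in edgeR. The sign of Tnfrsf17 and of Cd79b turned without D, to -0.75 and -0.37.

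**Figure D5:**
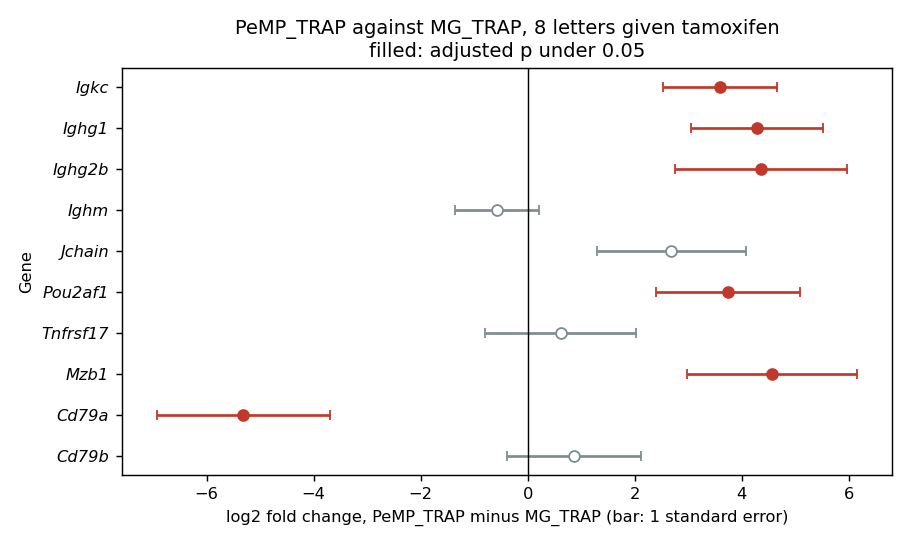
Fitted log2 difference between PeMP_TRAP and MG_TRAP in tamoxifen mice for each gene (points, horizontal axis) with 1 standard error (bars); filled points have an adjusted p under 0.05 in edgeR. Igkc, Ighg1, Ighg2b, Pou2af1 and Mzb1 lie between 3.59 and 4.57, Cd79a lies at -5.31, and the other 4 are open; under total-count scaling the open points of Tnfrsf17 and Cd79b lie at -0.12 and -0.20.

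Tamoxifen was compared with vehicle in the first set alone, which asks how far the immunoprecipitates depend on the induced tag. These tests share the tamoxifen TRAP libraries of D, E and F with the comparison that chose the genes, and Ighg1, Pou2af1, Mzb1 and Cd79a did not pass the filter. In PeMP_TRAP 11.1% of 14771 genes were called in edgeR, 5.56% of all genes tested higher and 5.56% lower, and 3 of the 6 tested genes of the list were called, all higher. Igkc rose by 12.02 (SE 2.70, adjusted p = 0.00783) on the log2 scale, a fitted value that depends on the prior count because the controls were at or near 0, and the mean was at least 377-fold above the limit of the control libraries. Without letter F it was at 7.07 (SE 3.22) and not called, and the bound fell to 9.1-fold, since D and E were at 46.9 and 1.2 CPM. Ighg2b was called at 12.70 (SE 4.10, adjusted p = 0.0421 in edgeR), but this value rests on F alone, at 286 counts beside 1 in D and 0 in E, and F was among the libraries that chose the list. Ighg2b lost the call without A, B or C, and without F it did not pass the filter. Its log2 difference was 12.95 to 13.39 in the fits without any of the other letters. Cd79b rose by 11.58 (SE 3.39, adjusted p = 0.0272) and lost the call without C, D or F, while its log2 difference was 8.55 to 12.30 with each letter left out. DESeq2 called 32.6% of genes and Igkc, Ighm and Cd79b of the list, and at an unadjusted p under 0.05 in edgeR there were 32% of genes and 5 of these 6. Ighm was at 3.45 (SE 1.32, adjusted p = 0.0737 in edgeR), at 1.14 (SE 1.19) and not called without D, and at 7.52 (SE 1.78) and called without C, the control library with 818 counts. Tnfrsf17 was at 2.32 (SE 1.95, adjusted p = 0.423 in edgeR), and at 12.81 (SE 3.94) and called without C. Jchain was at 8.56 (SE 3.32, adjusted p = 0.0807 in edgeR), and at 9.56 (SE 2.70) and called without D. Of the first-set libraries it had more than 1 count only in tamoxifen TRAP libraries, so it passed the filter through the group where it was high. Ighg1 passed the filter and was called without any of A, B, C, D or E, and Pou2af1 without D or E, both through the counts of F. With no filter, where 1800 genes were called in all, 7 of the 10 were called, Ighg1, Ighm, Jchain and Pou2af1 besides Igkc, Ighg2b and Cd79b. The share of all genes in that fit is not given here. Among first-set PeMP_TRAP libraries Ighg1, Ighg2b, Jchain and Pou2af1 had more than 1 count only in F, which also served to choose the list. Nothing is read from this count.

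In MG_TRAP the same comparison called 0% of genes in edgeR, and 0 of the 6 tested genes of the list. At an unadjusted p under 0.05 there were 2351 of 14771 genes, 15.9%, and 4 of these 6, and DESeq2 called 6.67% of genes and 3 of the 6, Igkc, Jchain and Tnfrsf17. Igkc was at 13.21 on the log2 scale (SE 2.81, adjusted p = 0.0635 in edgeR), and it was called with RLE size factors, with total counts, without D and without E. The controls were at 0, so this fitted value depends on the prior count. The mean of Igkc was at least 78.9-fold above the limit of the control libraries. That mean was carried by F, at 466 CPM beside 0.226 and 0.441 CPM in D and E. With no filter, where 52 genes were called in all, Igkc, Ighg1, Pou2af1 and Tnfrsf17 of the list were called. The share of all genes in that fit is not given here. Among first-set MG_TRAP libraries Ighg1 and Pou2af1 had more than 1 count only in F, which also served to choose the list. Nothing is read from these calls. Leaving out F lowered the log2 difference of Igkc to 4.33 (SE 2.59). Ighm was 5.21-fold higher in mean CPM than in controls and 2.38-fold higher without D. The groups did not overlap in either case, but the share of all genes without overlap was not counted. The fitted log2 difference of Ighm, 2.66 (SE 1.27), had an adjusted p of 0.299 in edgeR. Tnfrsf17 was at 9.66 (SE 2.79), Jchain at 10.23 (SE 3.41) and Cd79b at 2.97 (SE 2.03), with adjusted p in edgeR of 0.171, 0.234 and 0.488.

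No gene of the list was called between the inputs in edgeR. Between tamoxifen and control, edgeR called 0% of genes in Input and 0% in SN_input, and 0 of the 6 tested genes of the list in each. At an unadjusted p under 0.05 there were 0 of these 6 in each, beside 3.06% and 3.35% of all genes. DESeq2 called 0.339% of genes in Input and 1 of the list, Tnfrsf17, whose counts here were 1 in a single control library and 0 elsewhere. In SN_input it called 0.451% of genes and 0 of the list. Between SN_input and Input in tamoxifen mice 2.55% of genes were called, 2.08% higher and 0.465% lower, and 0 of the 10 of the list. At an unadjusted p under 0.05 there were 2 of the 10 beside 11.2% of all genes, and DESeq2 called 3.44% of genes and 1 of the 10, Ighg2b, whose counts here were 1 in Input of D and 0 elsewhere. The values nearest to a call in edgeR were those of Tnfrsf17 at 4.17 (SE 1.45, adjusted p = 0.138) and Cd79b at 3.31 (SE 1.36, adjusted p = 0.268), with Igkc at 2.15 (SE 1.10, adjusted p = 0.473).

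Control immunoprecipitates against their inputs show what the capture held without tamoxifen, which was not background alone in MG_TRAP. Of 10 microglial genes 9 had an unadjusted p under 0.05 there in edgeR, at a median log2 difference of 3.70, though 0 were called. In control PeMP_TRAP against SN_input it was 1 of the 10, at a median of 0.50. MG_TRAP against Input in controls called 0.0135% of genes in edgeR and 0 of the 6 tested genes of the list. Of these 6, 2 had an unadjusted p under 0.05, beside 7.45% of all genes, and DESeq2 called 1.57% of genes and 1 of the 6, Igkc, whose counts here were 1 in each Input library and 0 in MG_TRAP. Cd79b was at 5.86 (SE 2.38, adjusted p = 0.589) and Ighm at 1.74 (SE 1.23, adjusted p = 0.983 in edgeR). PeMP_TRAP against SN_input in controls called 0% of genes in edgeR and 0 of 6. At an unadjusted p under 0.05 there was 1 of the 6, Cd79b at -7.60 (SE 3.24, adjusted p = 0.243 in edgeR), beside 17.4% of all genes. DESeq2 called 11% of genes and 1 of the 6, Jchain, whose counts here were 1 in a single PeMP_TRAP library and 0 elsewhere.

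The levels over input were also set side by side between the sets of tamoxifen libraries, as an interaction. These are the values that chose the genes, so nothing is read from the counts for the list. For MG_TRAP over Input edgeR called 0% of 17961 genes and 0 of the 10, and 5.96% of genes and 0 of the 10 had an unadjusted p under 0.05. DESeq2 called 1.81% of genes and 3 of the 10. For PeMP_TRAP over SN_input edgeR called 15.1% of genes, 0.189% higher and 14.9% lower, and 0 of the 10, and 25.7% of genes and 1 of the 10 had an unadjusted p under 0.05. DESeq2 called 20.5% of genes and 2 of the 10. With 1 letter left out edgeR called 0 of the 10 in MG_TRAP over Input, beside 0 to 2 of all genes. In PeMP_TRAP over SN_input it called 1 without E, 2 without F and 0 without any other letter, beside 1496 to 3171 of all genes. The mean of Tnfrsf17 in PeMP_TRAP was 70.3 CPM in the first tamoxifen set and 3.96 CPM in the second.

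Other genes of plasma cells were read as a list of 19, and those of B cells as a list of 20. In PeMP_TRAP against MG_TRAP, 3 of the 18 plasma cell genes tested were higher in edgeR and 0 lower, beside 3.17% and 22% of all genes. Hsp90b1 and Sec11c, which serve protein folding and signal peptide removal in the endoplasmic reticulum of all secretory cells, rose by 1.81 (SE 0.34, adjusted p = 0.000336) and 1.38 (SE 0.41, adjusted p = 0.0101), and Ssr4, a translocon subunit, by 1.30 (SE 0.45, adjusted p = 0.0292). These 3 were also the plasma cell genes called higher in SN_input against Input, where 2.08% of all genes were. In PeMP_TRAP of tamoxifen against control mice 2 of 16 were higher, beside 5.56% of all genes, Ssr4 at 6.24 and Tnfrsf13b, which encodes the receptor TACI, at 7.83 (SE 1.79, adjusted p = 0.00819). Of 8 B cell genes tested in PeMP_TRAP against MG_TRAP, Ly6d (5.75) and Ebf1 (5.54) were higher and Cd22 (-8.75) was lower, beside 3.17% and 22% of all genes. In PeMP_TRAP of tamoxifen against control mice 2 of the 7 B cell genes tested were higher, Blnk (9.28) and Bank1 (8.11), adaptors of B cell receptor signalling, where 5.56% of all genes were.

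Of the 19 plasma cell genes, 16 were above 3 counts in some PeMP_TRAP library of the second set and 3 were at 0 in all 5. In the 8 tamoxifen PeMP_TRAP libraries, D and E included, the medians of Prdm1 and Irf4, transcription factors of plasma cells, and of the surface marker Sdc1 were 0 CPM, with highest values of 47.3, 178 and 68 CPM, that of Irf4 in letter F and the others in the second set. These genes were singled out after their values were seen. Derl3 was at 0 in all 10 TRAP libraries of the second set, and Slamf7 was at 0 in all 22 TRAP libraries. Xbp1, which many cells express, was at 182 ± 63.7 CPM in MG_TRAP and 113 ± 165 CPM in PeMP_TRAP of the second set, and at 151 ± 54.5 CPM in control MG_TRAP (n = 3). The summed list ran from 1228 to 2421 CPM in PeMP_TRAP and from 1143 to 1514 CPM in MG_TRAP of the second set, against 836 to 1505 CPM in control MG_TRAP and 391 to 1301 CPM in control PeMP_TRAP. In the first tamoxifen set it was above these controls, at 1718 to 2424 CPM in MG_TRAP and 1803 to 2585 CPM in PeMP_TRAP. Among the B cell genes, Blk, Fcer2a, Fcrla and Vpreb3 were at 0 in all 22 TRAP libraries. The summed B cell list was at 257 to 560 CPM in MG_TRAP and 153 to 1037 CPM in PeMP_TRAP of the second set and at 41.4 to 190 CPM in control MG_TRAP, carried mostly by Cd37 and Blnk. The 10 genes are named here by gene and are not assigned to a cell type.

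Summed markers of some other cells differed between the fractions in the second set, and others overlapped. The summed level of 5 red cell genes was 54.2 to 172 CPM in MG_TRAP and 75.9 to 167 CPM in PeMP_TRAP of the second set. That of 5 endothelial genes was 0 to 31.8 and 0 to 64 CPM, and that of 6 neutrophil genes 0 to 0.903 CPM and 0 CPM. The summed level of 9 T cell genes was 0 CPM in all 5 PeMP_TRAP libraries of the second set and 23.8 to 29.7 CPM in MG_TRAP. That of 8 genes of dividing cells was 348 to 634 CPM in PeMP_TRAP and 19.3 to 51.4 CPM in MG_TRAP of the second set. In the first tamoxifen set the dividing cell genes overlapped, at 51.3 to 202 CPM in PeMP_TRAP and 33.1 to 182 CPM in MG_TRAP. Markers of border macrophages, which can carry the tag, had a summed level over 6 genes of 0.0787 to 51.5 CPM in control MG_TRAP, of 161 to 256 CPM in tamoxifen MG_TRAP of the first set and of 145 to 217 CPM in that of the second. In PeMP_TRAP it was 0.88 to 620 CPM in controls, 394 to 602 CPM in the first tamoxifen set and 286 to 685 CPM in the second, ranges that overlap. Of the 5 tested between tamoxifen and control, 0 were called in either fraction in edgeR, with 4 in MG_TRAP and 2 in PeMP_TRAP at an unadjusted p under 0.05, beside 15.9% and 32% of all genes, and median log2 differences of 6.79 in MG_TRAP and 2.53 in PeMP_TRAP. The part of these differences in the levels of the immunoglobulin genes was not tested.

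Likeness to Igkc was measured as Pearson's r of log2 CPM over the 22 TRAP libraries among 13154 genes, as a description of libraries that share depth and set. Ighg1 was the nearest at 0.949, with 0.885 over the 12 libraries of the first set and 0.975 over the 10 of the second. It was followed by the processed pseudogene Gm15745 at 0.939, Gm11942 and the ribosomal protein gene Rpl4 at 0.934 each, and Gm5835 at 0.931. Pou2af1 was at 0.925 and Jchain at 0.86, Mzb1 and Ighg2b at 0.612 and 0.604, Tnfrsf17 and Cd79b at 0.239 and 0.151, and Ighm at -0.00733. Over the 10 libraries of the second set r was 0.841 for Pou2af1 and 0.649 for Jchain, 0.101 for Mzb1 and 0.0789 for Ighg2b, and -0.549 for Tnfrsf17, -0.623 for Cd79b and -0.629 for Ighm. Over the 12 of the first set these 7 lay between 0.272 for Ighm and 0.895 for Pou2af1. Ighm itself was closer to Cd79b (0.684), Tnfrsf17 (0.601) and Ighd (0.502) than to Igkc.

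The authors' deposited table of log2 fold changes held 3 of the 10 genes. Its sample columns are the 24 libraries of the first set, whereas the tamoxifen fits above hold both sets, so the values are not over the same samples. In that set Tnfrsf17 had 0 counts in the 3 tamoxifen Input libraries and at most 1 in the 3 control ones. In the authors' deposited table Tnfrsf17 was at 10.27 in MG_TRAP against Input, 12.55 in SN_input against Input and 5.46 in PeMP_TRAP against SN_input. Cd79b was at 8.34, 8.51 and 5.10 in the same 3 comparisons of the authors' deposited table, and Jchain at 10.10, 0.00 and 11.87. Igkc, Ighg1, Ighg2b, Ighm, Pou2af1, Mzb1 and Cd79a have no value given here from the authors' deposited table.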

How the data were processed

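RNA of 44 mouse brain libraries was reverse transcribed and amplified with a SMART-Seq v4 kit, per the labels' protocols. The deposited files hold HTSeq counts per Ensembl gene made by the authors. Per the submitters' processing notes the tools were FastQC 0.11.7, Trimmomatic 0.38, Bowtie2 2.3.5, STAR 2.7.0d and HTSeq 0.9.1, with edgeR named for the first set only. The genome build, annotation, strand setting and read length are not given in the sources used here. A deposited table of the authors' comparisons holds log2 fold changes, p-values and test scores, of which only log2 fold changes of the 10 genes are printed. Rows that name no gene stayed out of totals: of all reads 1.27% to 25.1% had no feature, 0.396% to 4.17% were ambiguous, 2.71% to 47.7% were not aligned and 13.2% to 58.2% were not unique.

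Symbols were mapped with GENCODE M21, and genes in the files of both sets were used, which left out 0.0232% to 0.795% of assigned reads per library. CPM is the count per 1000000 assigned reads. Tests were edgeR 4.0.16 quasi-likelihood fits in R 4.3.3, with TMM scaling, filterByExpr with a minimum count of 10, Benjamini-Hochberg adjustment over all genes tested and a threshold of 0.05. A first fit held the 32 tamoxifen libraries with set as a covariate, another the 24 libraries of the first set, and the set interactions had a mean for each fraction and set. Log2 CPM used a prior count of 2. Alternatives were DESeq2 1.42.0 (shares over genes with an adjusted p), RLE size factors, total counts, no filter, each set alone, a replicate block and leaving out each letter, which for folds of mean CPM was added after seeing the data. Scripts were tested on simulated data. Genes named with values were the 10 genes, the immunoglobulin constant genes with 3 or more counts in a library, the 3 V, D or J genes of each locus with the largest summed CPM in TRAP libraries, the 5 genes most like Igkc among those with 10 or more counts in at least 5 libraries, and the genes of marker lists that were called or lead them. Igkv6-20 and the defining markers of plasma and B cells were named after their values were seen. The genes and lists were chosen with earlier results of these data known.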

Additional observations from a re-analysis of the deposited data

Results flagged for a closer look

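Of 36 groups of 8 tamoxifen libraries tested for an outlying sample, 12 had one. The threshold flags about 1 in 20 groups of normally spread values, a rate that does not apply to groups that are mostly 0. Each is a library far from the other 7 of its fraction, and both sets are in each group. In MG_TRAP, letter F had Igkc at 466 CPM, with the next library at 205, and Pou2af1 at 104 CPM, with the next at 44.7. Letter D had Ighm far above the rest in 3 fractions, at 2285 CPM in MG_TRAP (next 954), 1510 CPM in PeMP_TRAP (next 309) and 313 CPM in SN_input (next 91.1). Letter F had Mzb1 at 103 CPM in PeMP_TRAP, with the next at 31.2, and letter K had Cd79a at 2.2 CPM in MG_TRAP, with the next at 0.226.

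The remaining 5 rest on few counts in the inputs. They are Jchain at 0.753 CPM (next 0.252) and Pou2af1 at 0.652 CPM in Input of G, Ighg2b at 0.0577 CPM in Input of D, and Ighg1 at 0.258 CPM and Pou2af1 at 0.129 CPM in SN_input of E.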

How the results depend on the processing

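Among 393 alternative values for the 10 genes, 331 kept direction and side of the threshold, 33 lost the call, 16 gained it and 13 turned sign. Outside these 393, a further 16 could not be fitted because the gene no longer passed the filter, and 2 had no adjusted p in DESeq2. The signs that turned belonged to uncalled values, and the cause was not tested. For PeMP_TRAP against MG_TRAP they were Ighm at 0.54 in the first set alone, Tnfrsf17 at -0.06 with DESeq2, -0.08 with RLE size factors, -0.12 with total counts, -2.20 in the second set alone and -0.75 to 1.03 with each letter left out, and Cd79b at -0.20 with total counts and -0.37 to 1.34 with each letter left out. For the set interactions Igkc ranged from -7.12 to 6.90 in MG_TRAP and from -1.10 to 1.47 in PeMP_TRAP with each letter left out. In PeMP_TRAP against MG_TRAP the median gene moved by -0.46 with RLE size factors and by -0.66 with total counts.

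Counts of genes called depended on the setting as follows. SN_input against Input called 400 genes (327 higher, 73 lower), 243 with RLE size factors (134 and 109), 6 in the first set alone, 607 in the second alone and 195 to 509 with each letter left out, and total counts gave 93 higher and 230 lower. PeMP_TRAP against MG_TRAP called 3952, 6100 with no filter, 0 in the first set alone and 6653 in the second alone. Tamoxifen against control in MG_TRAP called 0, 875 with DESeq2, 17 with RLE size factors, 52 with no filter, 11 with total counts and 0 to 46 with each letter left out. In PeMP_TRAP it called 1643, 4109 with DESeq2 and 365 to 1393 with each letter left out, 365 being without F and 967 without D. DESeq2 called 48 in Input and 64 in SN_input, where edgeR called 0. MG_TRAP against Input in controls called 2, 223 with DESeq2, 4 with RLE size factors, 17 with no filter and 0 with each letter left out. PeMP_TRAP against SN_input in controls called 0, 1275 with DESeq2, 16 with no filter, 1 with total counts and 0 to 1 with each letter left out. The set interaction in MG_TRAP called 0, 316 with DESeq2, 4 with no filter and 0 to 2 with each letter left out, and that in PeMP_TRAP 2710 and 1496 to 3171 with each letter left out.

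The letters were checked as pairs. Deviations of PeMP_TRAP and MG_TRAP of the same letter correlated at -0.0046 to 0.115, and the own letter was the best match in 5 of 8. Each letter was matched only among the few letters of its own set and treatment, so this check cannot exclude pairing. The main fits did not take the letters as pairs, and the fits with a replicate block did. The own letter was the best match in 6 of 8 for MG_TRAP with Input (0.0125 to 0.224), 6 of 8 for SN_input with Input (-0.00169 to 0.0578) and 2 of 8 for PeMP_TRAP with SN_input (-0.0124 to 0.0936). With a replicate block PeMP_TRAP against MG_TRAP called 3532 genes, and of the 10 it kept Igkc, Ighg1 and Pou2af1. The block gave 8 genes for MG_TRAP against Input in controls and 1791 for the set interaction in PeMP_TRAP, of the 10 Ighg1, and the interactions of Igkc became 1.92 in MG_TRAP and 0.16 in PeMP_TRAP. Depth limits the values near 0, since 3 counts stood at 4.02 CPM in PeMP_TRAP of F.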
